A study of Mus musculus with 21 samples.

Results

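Expression of 8 glucocorticoid response genes was followed across mammary tumours and sorted hematopoietic stem cells (HSC) of sedentary and physically active mice, as a transcript readout of systemic stress hormone. The 8 genes were taken by symbol, not by a threshold on measured values, and are the receptor Nr3c1, the target genes Fkbp5, Tsc22d3, Zbtb16, Sgk1 and Klf9, and the metallothioneins Mt1 and Mt2. They are 8 of the 20392 genes listed in at least 1 of the 4 deposited tables, and all 8 were listed and tested in every comparison.

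Glucocorticoids, mainly corticosterone in mice, bind the glucocorticoid receptor in the cytoplasm, where chaperones hold it ready, and the receptor then moves to the nucleus and acts on genes through palindromic glucocorticoid response elements. Target genes include feedback inhibitors of the receptor, mediators of its anti-inflammatory action and metal-binding proteins, and some of them respond in nearly every tissue. Several are also used by other signals, among them progesterone, insulin, inflammation, hypoxia and metal ions, so their transcripts do not read 1 hormone alone.

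All mice were of the MMTV-PyMT genotype, in which the mouse mammary tumour virus promoter drives the polyomavirus middle T oncogene and mammary tumours form. Whole tumours were taken from sedentary and from physically active mice at week 12 and at week 18, with 3 biological replicates in each of these 4 groups. Freshly sorted HSC came from sedentary and from physically active mice at week 12 and, as a transplant group, from sedentary mice transplanted with cells of a physically active mouse at week 14, again with 3 replicates each. The labels do not say how the active mice exercised, which surface markers defined the sort, how recipients were conditioned or whether replicates pool animals, so the p-values measure the spread between these samples. The transplant group differs from the other HSC in week as well as in transplantation, and these cannot be told apart.

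Tumour libraries held 20838963 to 28973775 reads. HSC libraries held 16406889 to 24574563 reads in replicates 1 and 2 and 58500940 to 72417315 in replicate 3. All 10 mammary epithelium markers were listed in tumours, and 9 of 10 HSC markers in HSC, where Hoxb5 was not listed. In HSC, 6 of the 10 epithelial markers were listed, with Krt8 and Krt19 at 0 in some libraries. One tumour stood apart: replicate 3 of the active group at week 12 had a summed T cell marker level of 13808.6 normalized counts, against 426.0 to 830.2 in the other 11. Its B and plasma cell sum was 21759.4, against 102.1 to 277.2 in the other 11. It also had the highest adipocyte sum (546301) and the highest megakaryocyte and erythroid sum (30316.9). For short it is called T cell rich, or T cell and adipocyte rich, below. Its epithelial sum, 65382, was the lowest. Replicate 2 of the active HSC appears in both HSC tables with different reads at 13105 of 13399 shared genes, whereas replicates 1 and 3 differ at 4 genes each, so at most 1 of these columns is that library. The table a value comes from is named, and differences for the other column are given beside the results where they move most.

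Of the 8 genes, 6 had RefSeq promoter windows (GRCm38.p6, 250 bases before to 50 after a start). The 3 windows shown carry matches to patterns of the elements behind the family's best known control. In the metallothionein windows the capitals mark matches to TGCNCNC, a loose pattern for the metal response element core, searched on both strands. Whether each match acts as an element was not tested. In the Sgk1 window the capitals mark the full glucocorticoid response element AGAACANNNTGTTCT, which reads the same on both strands.
Mt2 promoter, chr8:94172368-94172667, plus strand: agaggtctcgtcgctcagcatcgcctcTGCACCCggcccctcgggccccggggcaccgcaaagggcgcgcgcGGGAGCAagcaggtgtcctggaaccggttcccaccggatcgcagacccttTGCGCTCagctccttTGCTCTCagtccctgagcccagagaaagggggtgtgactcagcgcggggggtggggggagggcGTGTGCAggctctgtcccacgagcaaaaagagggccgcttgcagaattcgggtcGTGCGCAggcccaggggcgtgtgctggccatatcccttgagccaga
Mt1 promoter, chr8:94178839-94179138, plus strand: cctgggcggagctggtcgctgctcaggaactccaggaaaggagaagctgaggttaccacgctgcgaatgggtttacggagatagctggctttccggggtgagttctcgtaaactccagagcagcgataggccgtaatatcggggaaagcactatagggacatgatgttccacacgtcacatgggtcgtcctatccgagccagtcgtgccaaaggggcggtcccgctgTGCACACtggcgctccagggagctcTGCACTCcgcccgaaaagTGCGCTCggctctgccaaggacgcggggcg
Sgk1 promoter, chr10:21993640-21993939, plus strand: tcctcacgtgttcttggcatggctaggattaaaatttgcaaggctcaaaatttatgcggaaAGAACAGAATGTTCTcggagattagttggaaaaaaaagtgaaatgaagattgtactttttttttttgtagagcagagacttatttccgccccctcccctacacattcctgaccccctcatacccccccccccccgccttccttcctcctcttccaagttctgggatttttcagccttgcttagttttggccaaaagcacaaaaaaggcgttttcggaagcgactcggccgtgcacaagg
The Mt2 window holds 6 matches to TGCNCNC, a number that 0.2255% of the 32817 mouse promoter windows reach. The Mt1 window holds 3, which 7.1% of windows reach, and 51.0% of windows hold at least 1. The full glucocorticoid element lies in 3 of the 32817 windows (0.0091%), 1 of which is this window, 1 of 6 annotated for Sgk1. Its left arm, the hexamer AGAACA searched on both strands, lies in 19.0% of windows and is part of the full element. No window of Mt1, Mt2, Fkbp5, Klf9 or Tsc22d3 holds the full element within these 300 bases. Mt2 (chromosome 8, 94172664 to 94173568) and Mt1 (94179082 to 94180327) lie 5513 bases apart on the same strand of GRCm38. Their transcripts share no exact run longer than 20 bases.

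In tumours, physical activity went with no change in any of the 8 genes that passed the test at either week, and the gene that came nearest was Zbtb16. limma on log2(normalized count + 1), adjusted over all genes, called 0 of the 8 at week 12, where it called 0.517% of 19162 genes, and 0 of the 8 at week 18, where it called 0% of 18939. At week 18 limma placed 1 of the 8, Zbtb16, at an unadjusted p under 0.05, against 5.97% of all genes. At week 12 it placed none there, against 4.09%. The median log2 difference of the 8 was 0.15 at week 12 and -0.23 at week 18, beside medians of 0.01 over all genes at both weeks.

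Nr3c1 encodes the glucocorticoid receptor itself. Its normalized counts were 2995, 2872 and 3624 in sedentary and 3167, 3128 and 4386 in active tumours at week 12. At week 18 they were 2220, 3402 and 3169 in sedentary and 2490, 2951 and 3153 in active tumours. The ranges overlapped at both weeks, and the highest of the 4 group means was 1.24 times the lowest. The log2 difference, active minus sedentary, was 0.16 (95% interval -0.36 to 0.68) at week 12 and -0.02 (-0.58 to 0.55) at week 18.

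Fkbp5 encodes a co-chaperone that lowers the receptor's affinity for hormone and closes a short feedback loop. It measured 1550, 1695 and 1572 in sedentary and 1439, 1906 and 897 in active tumours at week 12, and 1391, 1604 and 1931 in sedentary and 2140, 1499 and 2383 in active tumours at week 18. The lowest of the 12 was the T cell and adipocyte rich active tumour, and neither week separated the groups. The log2 differences were -0.25 (95% interval -1.01 to 0.51) at week 12 and 0.28 (-0.34 to 0.89) at week 18. Klf9, a transcription factor gene with receptor-bound enhancers, ranged from 968 to 1346 in sedentary and from 925 to 1242 in active tumours at week 12. At week 18 it ranged from 995 to 1473 in sedentary and from 728 to 1068 in active tumours, with a log2 difference of -0.45 (95% interval -1.03 to 0.14).

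**Figure D1:**
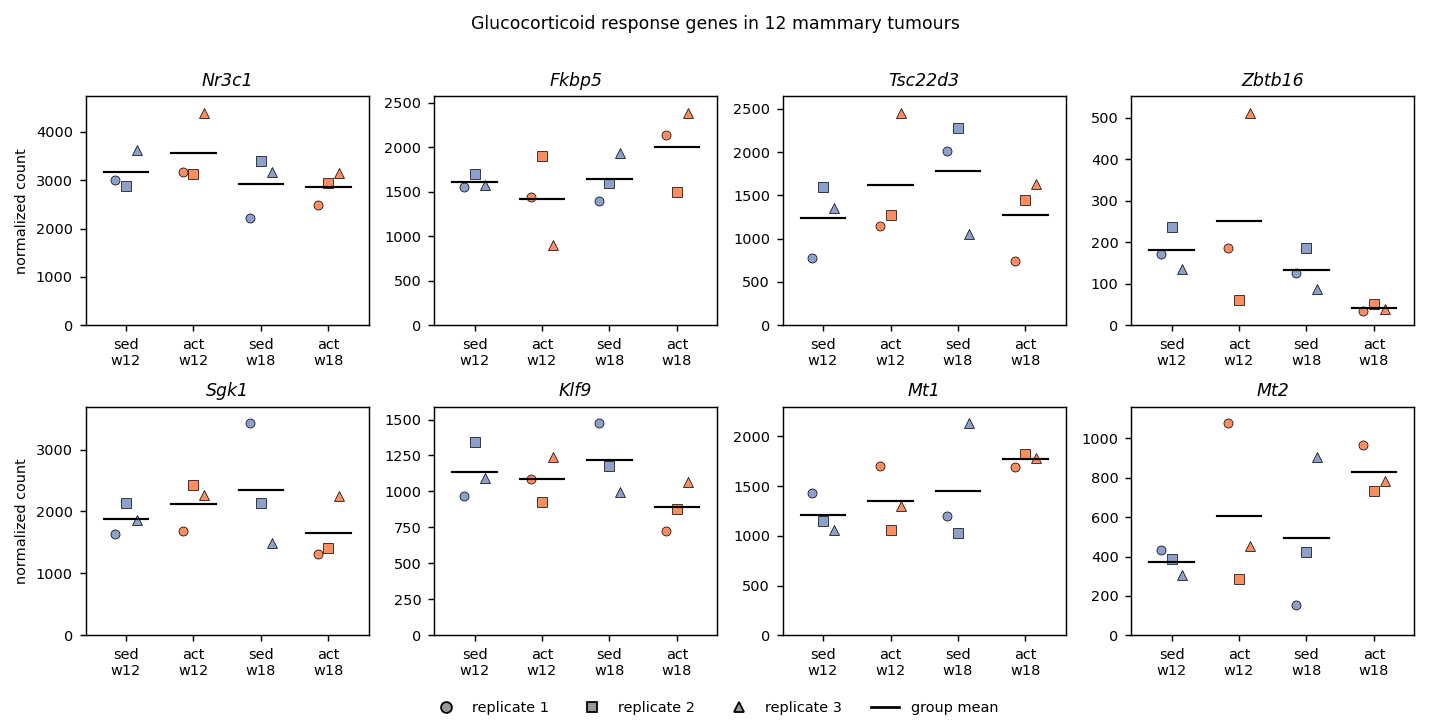
Normalized counts (linear axes from 0) of the 8 genes in the 12 tumours, sedentary (sed) and physically active (act) at weeks 12 and 18 (w12, w18); each symbol is 1 tumour, shaped by replicate number, and each bar is a group mean. Zbtb16 was the gene whose active tumours at week 18 (33.3 to 50.7) all lay below the sedentary ones (87.2 to 185), and replicate 3 of the active group at week 12 was the highest for Nr3c1, Tsc22d3 and Zbtb16.

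Tsc22d3 encodes GILZ, a leucine zipper protein that mediates part of the anti-inflammatory action of glucocorticoids. Its normalized counts were 777, 1591 and 1351 in sedentary and 1143, 1279 and 2449 in active tumours at week 12, and 2009, 2279 and 1056 in sedentary and 744, 1450 and 1633 in active tumours at week 18. The highest value was again the T cell rich tumour, and the groups overlapped at both weeks. The log2 difference was 0.37 (95% interval -0.68 to 1.41) at week 12 and -0.48 (-1.58 to 0.61) at week 18.

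Sgk1 encodes a kinase that regulates ion channels and is induced by glucocorticoids and aldosterone. It measured 1644, 2139 and 1869 in sedentary and 1679, 2421 and 2267 in active tumours at week 12. At week 18 it measured 3421, 2132 and 1484 in sedentary and 1308, 1416 and 2254 in active tumours. One sedentary tumour of week 18, replicate 1, was the highest of the 12 for both Sgk1 and Klf9 and the lowest for Mt2. The log2 difference of Sgk1 was 0.16 (95% interval -0.37 to 0.69) at week 12 and -0.46 (-1.42 to 0.51) at week 18.

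Zbtb16 encodes PLZF, a zinc finger repressor induced strongly by glucocorticoids and progestins and also made by innate-like lymphocytes and stromal cells. At week 18 its normalized counts were 124.5, 185.2 and 87.2 in sedentary and 33.3, 50.7 and 38.3 in active tumours. All 3 active tumours were therefore lower than all 3 sedentary ones, as 7.57% of all genes were at this week. The means were 132 ± 49.4 and 40.8 ± 8.96 (SD, n = 3 each), a log2 difference of -1.63 (SE 0.33, 95% interval -2.46 to -0.80) with limma adjusted p = 0.676 and the 93rd smallest p of 18939. The threshold was passed in DESeq2 on the recovered reads (log2 -1.69, adjusted p = 0.0260), which called 0.275% of genes. Over the 13 alternatives the adjusted p ran from 0.0260 to 0.944. The authors' deposited table gives Zbtb16 at a log2 fold change of -1.71 with an adjusted p of 0.0465, among 41 genes (0.213%) under 0.05.

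At week 12 Zbtb16 measured 171.6, 237.1 and 135.7 in sedentary and 184.9, 59.8 and 510.7 in active tumours. The active group spanned the sedentary one on both sides, and the log2 difference was 0.01 (95% interval -1.98 to 2.01). It was -0.74 without the T cell and adipocyte rich tumour and 0.80 without replicate 2. The week 18 effect minus the week 12 effect was -1.64 on the log2 scale (SE 0.91, limma adjusted p = 0.770), and -0.89 without that tumour. In limma this interaction test called 0.0104% of 19241 genes and none of the 8. It placed 0 of the 8 and 6.33% of all genes under an unadjusted p of 0.05. edgeR and DESeq2 placed 1 of the 8 there, Zbtb16, and 1604 and 2015 of the 19241 genes.

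Several cell type marker lists also lay to 1 side at week 18, with no gene called. At that week limma called 0% of all 18939 genes, and 51.1% of all differences were positive. All 12 adipocyte markers had negative differences, none called, and their summed level was 1310 to 7205 normalized counts in active and 2023 to 40219 in sedentary tumours. All 8 fibroblast markers were also negative, none called, with sums of 15747 to 78086 in active and 42010 to 103576 in sedentary tumours. None of these 20 markers was at 0 in any tumour of that week. Sedentary replicates 1, 2 and 3 had adipocyte sums of 2023, 40219 and 25634 and fibroblast sums of 42010, 68528 and 103576. Their Zbtb16 values were 124.5, 185.2 and 87.2. Active replicates 1, 2 and 3 had adipocyte sums of 1310, 7205 and 5772 and fibroblast sums of 15747, 48366 and 78086. Their Zbtb16 values were 33.3, 50.7 and 38.3. Other lists lay on the positive side, none with a called gene: 10 of 10 hypoxia markers, 13 of 13 skeletal muscle markers (sums of 465 to 13015 in sedentary and 1404 to 17113 in active tumours) and 7 of 9 tested neutrophil markers (27421 to 102676 and 63065 to 110003, with S100a9, Mmp8, Elane and Mpo at 0 in at least 1 sedentary tumour and Elane and Mpo in at least 1 active tumour). The neutrophil sums do not measure neutrophil content, since few of the listed markers made up most of each sum. Their mean log2(normalized count + 1) was only 3.96 to 5.35 in sedentary and 5.54 to 5.87 in active tumours. The part of any of these lists in the Zbtb16 difference was not tested. In bulk samples fewer cells of a type and less RNA per cell cannot be told apart. At week 12 the skeletal muscle list differed between groups, with 12 of 13 genes called lower in active tumours. There limma called 0.517% of all 19162 genes in either direction. The muscle list summed to 60470 to 130373 in sedentary against 348 to 1511 in active tumours. Its part in the week 12 values of the 8 genes was not tested.

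The metallothioneins Mt1 and Mt2 bind zinc and copper and are induced by metals, through metal response elements, and by glucocorticoids. Mt1 measured 1429, 1150 and 1055 in sedentary and 1699, 1055 and 1296 in active tumours at week 12, and 1197, 1033 and 2130 in sedentary and 1696, 1828 and 1785 in active tumours at week 18. Mt2 measured 431.9, 385.7 and 305.0 in sedentary and 1076, 288.5 and 451.6 in active tumours at week 12, and 155.1, 423.0 and 905.1 in sedentary and 965.4, 734.4 and 781.7 in active tumours at week 18. At week 18 both genes varied widely among sedentary tumours and little among active ones, and sedentary replicate 3 reached the active range. The log2 difference at week 18 was 0.36 (95% interval -0.40 to 1.11) for Mt1 and 1.07 (-0.55 to 2.69) for Mt2. Leaving out 1 tumour moved it between 0.15 (without sedentary replicate 2) and 0.67 (without sedentary replicate 3) for Mt1, and between 0.41 (without sedentary replicate 1) and 1.68 (without sedentary replicate 3) for Mt2. limma called neither gene in any of these fits. Beside the metallothioneins, all 10 hypoxia markers had positive differences at week 18, with a median of 1.02. None was called, and limma called 0% of all 18939 genes there. The hypoxia markers summed to 28420 to 52530 in sedentary and 48997 to 114273 in active tumours. Their part in the Mt1 and Mt2 values was not tested.

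Between weeks, 0 of the 8 genes were called by limma in sedentary tumours (0% of 19000 genes) and 0 of the 8 in active tumours (0% of 19182). In sedentary tumours no member had an unadjusted p under 0.05 in limma, edgeR or DESeq2, and 4.98% of all genes did in limma. In active tumours Zbtb16 did in all 3 tools, against 12.1% of all 19182 genes in limma and 2892 and 3850 of them in edgeR and DESeq2. All 3 active tumours of week 18 had less Zbtb16 than all 3 of week 12 (59.8 to 510.7), as 12.7% of genes did. The log2 difference was -2.12 (95% interval -4.10 to -0.15), with limma adjusted p = 0.412. DESeq2 gave -2.62 with adjusted p = 0.0217 and called 4.65% of genes, and the adjusted p over all alternatives ran from 0.0217 to 0.637. Without the T cell rich tumour the limma difference was -1.37.

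Ordered by group mean, Zbtb16 ran from active week 12 (252 ± 233) through sedentary week 12 (182 ± 51.4) and sedentary week 18 (132 ± 49.4) to active week 18 (40.8 ± 8.96). The last step was the 1 where neighbouring groups did not overlap. For the other 7 genes the highest group mean was between 1.24 (Nr3c1) and 2.21 (Mt2) times the lowest, and the groups overlapped in all 4 comparisons of active with sedentary or of week 18 with week 12. Over single tumours the highest value was 15.3 times the lowest for Zbtb16, 6.94 times for Mt2, 3.29 times for Tsc22d3 and 1.98 times for Nr3c1.

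The 8 genes did not rise and fall as 1 block across the 12 tumours. Of their 28 pairs, 5 had a Pearson r that passed Benjamini-Hochberg adjustment over the 28 (permutation test, 100000 resamples, two-sided), 3 of them positive and 2 negative. The permutation shuffled all 12 tumours without regard to group, so differences between groups enter its p-values. The share of other gene pairs that would pass was not computed, so 5 of 28 is not set apart from it. No Spearman rho passed, the smallest adjusted p being 0.1045. Mt1 and Mt2 gave r = 0.812 (permutation p = 0.00177, adjusted 0.0180) and rho = 0.769, with r = 0.790 without the 2 tumours farthest from the Mt1 median, 0.933 within week 12 and 0.761 within week 18. For every pair the 2 farthest tumours are those of the gene named first, so extreme tumours of the other gene could stay in. Sgk1 and Klf9 gave r = 0.780 (permutation p = 0.00257, adjusted 0.0180; rho = 0.657), but 0.203 within week 12 against 0.936 within week 18 and 0.511 without the 2 farthest tumours. Tsc22d3 and Klf9 gave r = 0.740 (permutation p = 0.00621, adjusted 0.0348; rho = 0.720), 0.694 and 0.837 within the weeks and 0.607 without the 2 farthest.

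Both negative pairs joined target genes of the receptor to each other. Fkbp5 and Zbtb16 gave r = -0.809 (permutation p = 0.00123, adjusted 0.0180; rho = -0.580), -0.859 and -0.662 within weeks 12 and 18, -0.586 without the 2 farthest tumours and -0.689 without the T cell rich tumour, which was lowest for 1 gene and highest for the other. Sgk1 and Mt2 gave r = -0.791 (permutation p = 0.00239, adjusted 0.0180; rho = -0.671), -0.559 and -0.882 within the weeks and -0.562 without the 2 farthest. Nr3c1 took part in none of the 5 pairs.

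**Figure D2:**
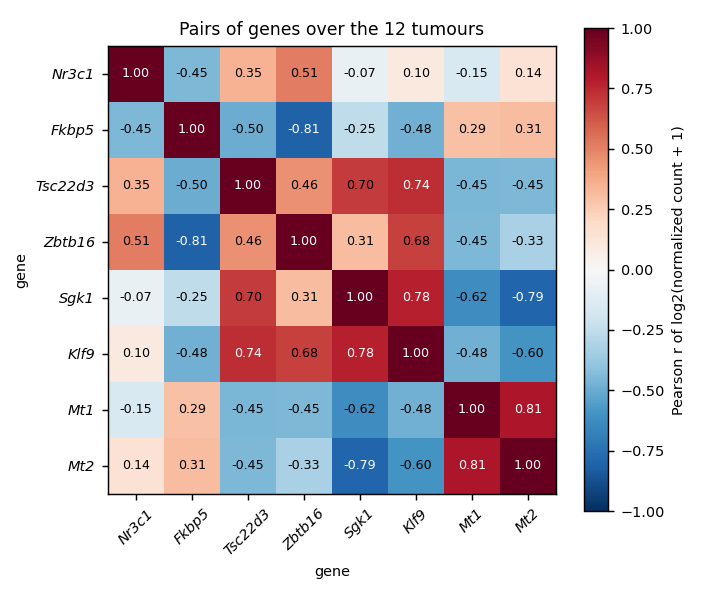
Pearson r of log2(normalized count + 1) over the 12 tumours for each pair of the 8 genes (both axes list the genes; red positive, blue negative). Mt1 with Mt2 (0.81), Sgk1 with Klf9 (0.78) and Tsc22d3 with Klf9 (0.74) are the positive pairs past adjustment, and Fkbp5 with Zbtb16 (-0.81) and Sgk1 with Mt2 (-0.79) the negative ones.

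Among 13630 genes with a mean of at least 50 normalized counts, the genes whose log2 levels ran most alike over the same 12 tumours were different for each of the 4 members ranked. For Fkbp5 they were 9530068E07Rik (r = 0.96), Tnfaip1 (0.95) and Fads2 (0.94), and for Tsc22d3 they were Socs4 (0.89), Bfar (0.89) and Zfp758 (0.88). For Mt1 they were Rnf113a1 (0.87), Cldn4 (0.82) and Hspd1 (0.80), and for Nr3c1 they were Camk2d (0.97), Cd33 (0.96) and H2-DMa (0.96). These are descriptions over tumours that share 1 outlying library, picked as the highest of many.

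In HSC, activity alone went with no change in the 8 genes that passed the test, and the transplant group had higher Tsc22d3 than the sedentary group. limma called 0 of the 8 for active against sedentary HSC (0% of 13513 genes), 0 of the 8 for transplant against active HSC (0.0513% of 13633) and 1 of the 8, Tsc22d3, for transplant against sedentary HSC. That last comparison called 11.7% of its 13329 genes, 7.94% as higher, so 1 of 8 is about the share of all genes. Members with an unadjusted p under 0.05 in limma numbered 2, 1 and 3 of 8 in these comparisons, in that order, against 9.27%, 17.8% and 31.7% of all genes. The median log2 difference of the 8 was 0.43, 0.24 and 0.61, beside 0.00 over all genes in each. With the other column for active replicate 2, the first 2 medians were 0.21 and 0.27, no member had an unadjusted p under 0.05 in limma (2.67% and 2.47% of all genes did), and no member separated the groups. The comparisons share samples, so their values are set side by side only.

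Tsc22d3 (chromosome X, 140539528 to 140600659, minus strand) measured 172.7, 149.4 and 149.3 in sedentary and 273.4, 267.4 and 171.0 in active HSC of the table that holds both. The lowest active library lay just under the highest sedentary one. The log2 difference was 0.56 (95% interval 0.02 to 1.11; limma adjusted p = 0.475), and 0.21 with the other table's column for active replicate 2. In the transplant and active table it measured 297.8, 138.0 and 189.5 in active and 409.7, 281.0 and 401.4 in transplant HSC, a log2 difference of 0.85 (0.06 to 1.65; limma adjusted p = 0.266). With the other column this difference was 0.50.

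Scaled together, the sedentary libraries held Tsc22d3 at 188.4, 162.8 and 163.6 and the transplant libraries at 409.3, 280.6 and 401.4 normalized counts. Every transplant library lay above every sedentary one, as 20.3% of all genes did. The means were 172 ± 14.6 and 364 ± 72.1 (SD, n = 3 each), and the log2 difference was 1.06 (SE 0.18, 95% interval 0.61 to 1.51; limma adjusted p = 0.0246). edgeR and DESeq2 also called it, beside 19.3% and 23.9% of all genes, and the adjusted p over 14 alternatives ran from 4.68e-05 to 0.0980. In limma the call was lost when any 1 sedentary library or transplant replicate 1 was left out (adjusted p from 0.0518 to 0.0980), with the log2 difference between 0.97 and 1.13. It was also lost with replicates 1 and 2 of each group alone (0.95, limma adjusted p = 0.0756) and with a block for replicate number (1.06, limma adjusted p = 0.0746).

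**Figure D3:**
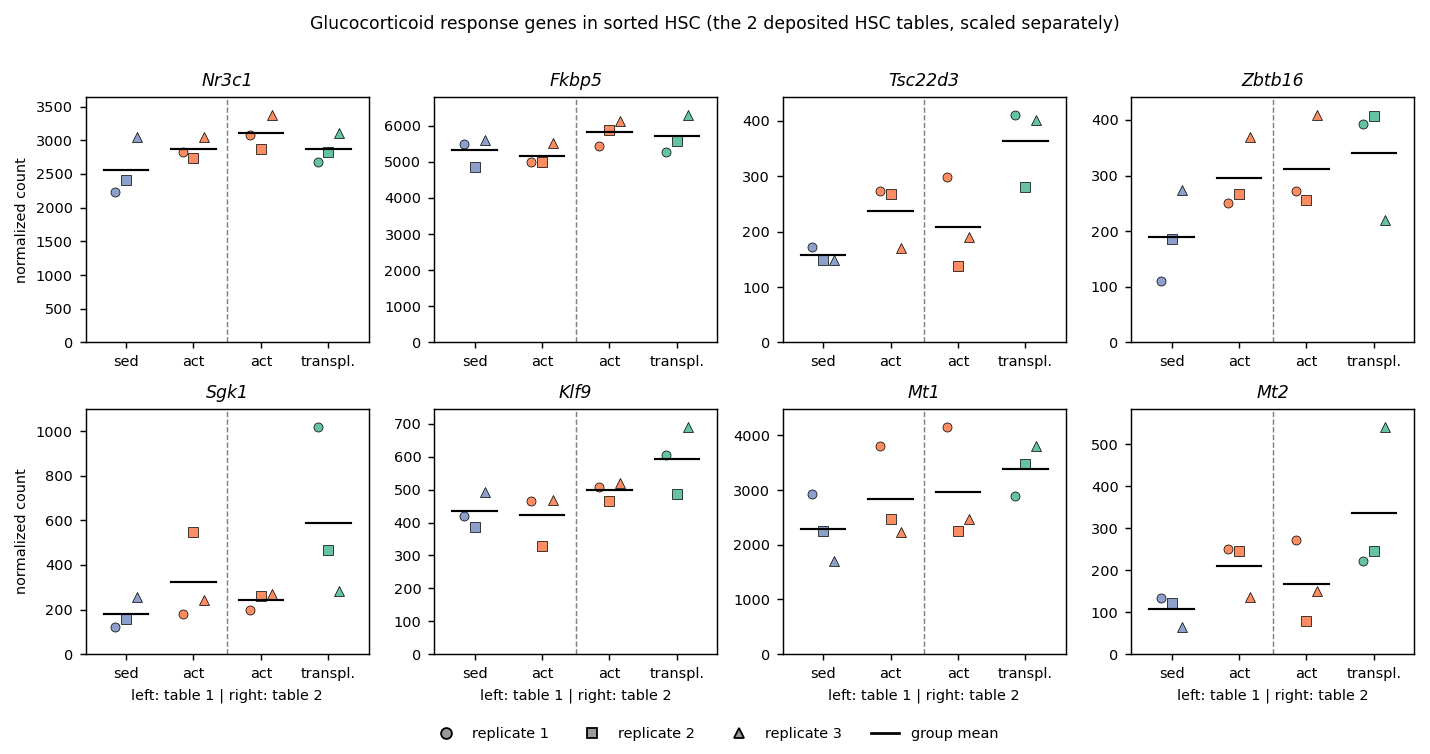
Normalized counts (linear axes from 0) of the 8 genes in HSC libraries; left of the dashed line are the sedentary (sed) and active (act) groups of 1 table, right of it the active and transplant (transpl.) groups of the other, each scaled on its own. Symbols are libraries shaped by replicate number, bars are group means, and the square in the active group, replicate 2, differs between the tables (Tsc22d3 267 and 138, Sgk1 546 and 260).

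Sgk1 (chromosome 10, 21882184 to 21999903, plus strand) measured 120.6, 159.1 and 254.7 in sedentary and 180.8, 546.4 and 243.0 in active HSC. The groups overlapped, and the highest value was the library whose columns disagree. Against active HSC of the other table (196.9, 259.9 and 269.3), the transplant libraries held 1019, 467.2 and 285.1. All 3 were above these active libraries, as for 13.1% of all genes. With the other column for active replicate 2 the groups overlapped. The log2 difference was 1.10 (95% interval -0.07 to 2.26; limma adjusted p = 0.301), 0.70 with the other column and 0.60 without transplant replicate 1. DESeq2 gave 1.28 with adjusted p = 0.0202 and called 8.12% of genes, and over 15 alternatives the adjusted p ran from 0.0202 to 1.00. The authors' deposited table gives Sgk1 at 1.29 with an adjusted p of 0.0220 there, where 7.92% of genes were under 0.05. Against sedentary HSC the log2 difference was 1.47 (0.18 to 2.75), with limma adjusted p = 0.123, edgeR adjusted p = 0.0379 and DESeq2 adjusted p = 0.000881. In that comparison edgeR and DESeq2 called 19.3% and 23.9% of all genes. Without transplant replicate 1, the highest, the limma difference was 0.97.

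Mt2 measured 134.0, 122.1 and 64.7 in sedentary and 250.5, 245.6 and 135.9 in active HSC. The active libraries were all higher, the lowest by a narrow margin, and 10.4% of all genes showed such a separation upward. The log2 difference was 0.99 (95% interval 0.05 to 1.92; limma adjusted p = 0.475), and 0.41 with the other column for active replicate 2, where the groups overlapped. Transplant libraries held 222.9, 244.1 and 540.9 against 146.1, 133.0 and 70.9 in sedentary HSC when scaled together. All transplant libraries were higher, as for 20.3% of all genes, and the log2 difference of Mt2 was 1.46 (0.38 to 2.55). The adjusted p was 0.0853 in limma, 0.0238 in edgeR and 0.000643 in DESeq2, where edgeR and DESeq2 called 19.3% and 23.9% of all genes. Against active HSC (272.9, 79.0 and 150.6) it was 1.06 (-0.32 to 2.43), with overlap, and 0.48 with the other column.

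Mt1 ranged from 1702 to 2924 in sedentary and from 2233 to 3812 in active HSC, a log2 difference of 0.30 (95% interval -0.43 to 1.03; 0.22 with the other column), and was 0.46 (-0.10 to 1.03) higher in transplant than in sedentary HSC. Zbtb16 (chromosome 9, 48654297 to 48836222, minus strand) measured 110.2, 186.4 and 274.2 in sedentary and 250.5, 267.4 and 368.5 in active HSC. These groups overlapped, and the log2 difference was 0.71 (-0.19 to 1.61; 0.65 with the other column). In transplant against sedentary HSC it was 0.75 (-0.25 to 1.75). The limma fit called none of these.

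Fkbp5 (chromosome 17, 28399094 to 28517527, minus strand) differed least between HSC groups. It ranged from 4846 to 5606 in sedentary and from 4983 to 5526 in active HSC of their shared table. Scaled together, sedentary HSC ranged from 5278 to 6141 and transplant HSC from 5266 to 6283. The log2 difference was -0.04 (95% interval -0.36 to 0.28) for active against sedentary, -0.03 (-0.33 to 0.27) for transplant against active and -0.02 (-0.33 to 0.28) for transplant against sedentary. Nr3c1 gave 0.17 (-0.23 to 0.57), -0.11 (-0.42 to 0.19) and 0.04 (-0.34 to 0.43) in the same order. Klf9 (chromosome 19, 23141226 to 23168134, plus strand) gave -0.05 (-0.54 to 0.43), 0.24 (-0.16 to 0.64) and 0.32 (-0.12 to 0.75). All 9 intervals held 0.

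**Figure D4:**
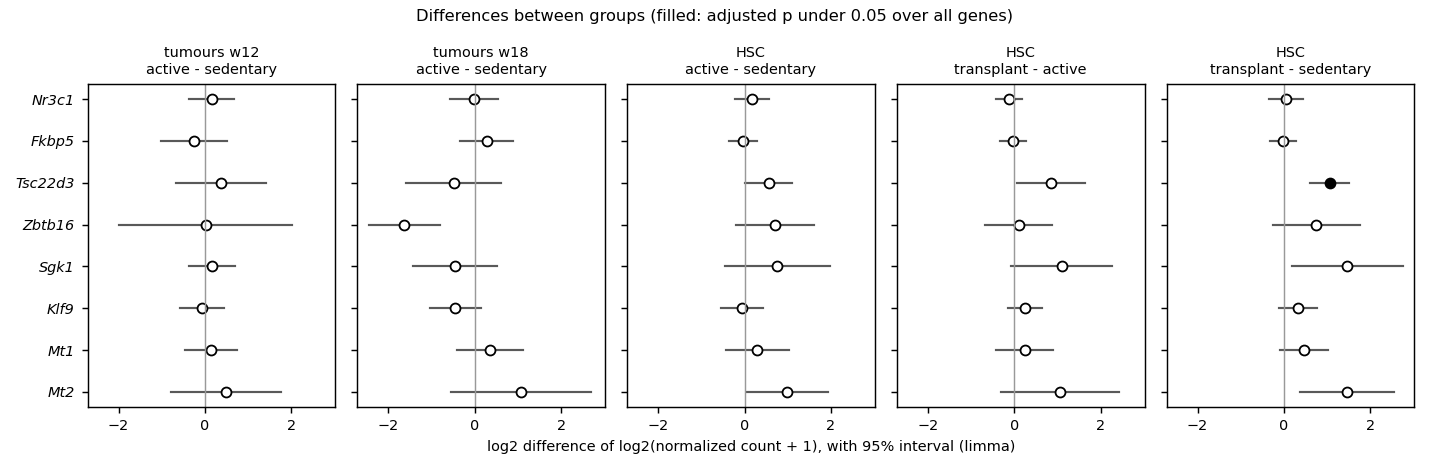
Differences between groups, on the x axis as the log2 difference of log2(normalized count + 1) with its 95% limma interval, for the 8 genes (y axis) in 5 comparisons; filled points passed the adjusted threshold over all genes. The 1 filled point is Tsc22d3 in transplant minus sedentary HSC (1.06), and the Zbtb16 interval in tumours at week 18 (-2.46 to -0.80) lies wholly below 0 without passing it.

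Some marker lists also differed between HSC groups. Between sedentary and transplant HSC, limma called 7.94% of all 13329 genes higher. In that comparison 11 of 12 neutrophil markers were called higher. Their summed level was 73859 to 107537 in sedentary and 278383 to 363774 in transplant libraries, with Retnlg at 0 in at least 1 sedentary library. The megakaryocyte and erythroid list had 3 of 8 genes called higher, with sums of 1921 to 3682 and 6677 to 18559. Sums over the listed macrophage markers (4008 to 4255 and 5281 to 8151) and hypoxia markers (87469 to 101862 and 106056 to 142548) were also higher in transplant HSC. Those of the 3 listed B and plasma cell markers were lower (184 to 258 and 106 to 154). HSC markers summed to 9464 to 10426 in sedentary and 9382 to 10023 in transplant HSC. Between sedentary and active HSC all 12 neutrophil markers had positive differences, none called (0% of all 13513 genes were), with sums of 67818 to 98168 and 123013 to 369574. For active replicate 2 the neutrophil sum was 369574 in 1 table and 77062 in the other (scaled separately). Tsc22d3, Sgk1, Mt2, Mt1 and Zbtb16 were lower in the column with the lower sum, and Nr3c1, Fkbp5 and Klf9 were higher there. These are 2 columns for 1 library, so no test was made. More cells of a type and more RNA of these markers per cell cannot be told apart here. The part of any of these lists in the higher Tsc22d3, Sgk1 and Mt2 was not tested.

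The wider pathway was described by 4 gene lists: receptor machinery (chaperones, coregulators and hormone-converting enzymes), other genes known to be induced by glucocorticoids, metal response genes, and inflammatory genes known to be repressed. No gene of the 4 lists was called by limma in any of the 5 tumour comparisons, or in active against sedentary or transplant against active HSC. The lists had 12, 22, 5 or 6, and 13 genes tested in tumours and 12, 21, 5, and 10 or 11 in HSC. At an unadjusted p under 0.05 limma placed between 0 and 3 genes of each list in a tumour comparison, where 4.09% to 12.1% of all genes were. In active against sedentary HSC it placed 1 machinery, 3 induced, 0 metal and 1 inflammatory gene (9.27% of all genes), and in transplant against active HSC 3, 6, 2 and 5 (17.8%). edgeR called none of them in these 7 comparisons, with 0 to 8 per list at an unadjusted p under 0.05. The 8 were of 21 induced genes in transplant against active HSC, where edgeR placed 2755 of all 13633 genes there. DESeq2 called some in 3 of these 7 comparisons. In active tumours between weeks, where it called 4.65% of all genes, DESeq2 called 1 machinery gene higher, and 1 induced gene higher and 3 lower. In active against sedentary HSC (1.9% of all genes) it called 1 of 21 induced and 1 of 10 inflammatory genes, both higher (Il1r2 and Il1b, named after their values were seen). In transplant against active HSC (8.12% of all genes) it called 1 of 12 machinery genes higher, 3 of 21 induced genes higher and 1 lower, 1 of 5 metal genes lower, and 4 of 11 inflammatory genes higher and 1 lower.

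In transplant against sedentary HSC, limma called 1 of 12 machinery genes higher and 0 lower, 4 of 21 tested induced genes higher and 2 lower, 0 of 5 metal genes higher and 1 lower, and 5 of 10 tested inflammatory genes higher and 0 lower, where 7.94% of all genes were called higher and 3.71% lower. edgeR and DESeq2 called more genes there, 19.3% and 23.9% of all genes in either direction. Each called 8 induced genes higher and 2 lower, and they also called 3 and 5 machinery genes lower, all of them chaperones or co-chaperones. Hsd11b1, the enzyme that regenerates active glucocorticoid from its inert form, rose from 176 ± 40.1 to 1152 ± 159 normalized counts (log2 2.72, limma adjusted p = 0.00677). Il1r2, a decoy receptor for interleukin-1 and a classic glucocorticoid-induced gene that neutrophils also express, rose from 81.6 ± 53.4 to 1219 ± 316 (log2 4.04, limma adjusted p = 0.0112). Anxa1, which encodes annexin A1, an anti-inflammatory protein abundant in neutrophils, rose from 1678 ± 114 to 3855 ± 691 (log2 1.19, limma adjusted p = 0.0162).

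The remaining called induced genes, named here after their values were seen, were Cebpd (log2 0.76) and Ddit4 (1.11), which rose, and Il7r (-2.87) and Glul (-0.47), which fell. In the list of repressed inflammatory genes the 5 members called by limma also rose. edgeR and DESeq2 each called 5 higher and 1 lower, beside 19.3% and 23.9% of all genes in either direction. Il6, a cytokine gene, rose from 28.2 ± 4.74 to 120 ± 30.2 (log2 2.04, limma adjusted p = 0.0120) and Vcam1, an adhesion molecule gene, from 28.2 ± 16.8 to 204 ± 48.6 (log2 2.93, limma adjusted p = 0.0162). Il1a, Il1b and Nos2, likewise named after their values were seen, went from group means of 3.48, 26.0 and 10.7 to 29.7, 309 and 167. The 1 metal gene called by limma, Slc39a10, a zinc importer, fell from 3247 ± 624 to 1684 ± 1.45. edgeR and DESeq2 each called 2 metal genes higher and 2 lower, beside the same 19.3% and 23.9% of all genes. Median log2 differences were -0.30 for machinery, 0.37 for induced, -0.40 for metal and 1.93 for repressed inflammatory genes, beside 0.00 over all genes. Genes listed as induced and genes listed as repressed were thus both mostly higher in this comparison, 17 of 21 and 8 of 10.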

How the data were processed

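Stranded mRNA libraries were prepared from tumour RNA and from RNA of freshly sorted HSC, per the labels' protocols. The build was mm10, per the submitters' processing notes, and the aligner and counter are not given in the sources used here. The authors deposited a normalized signal per gene, which was a gene count divided by 1 factor per library: 100% of values came out as whole reads (tolerance 0.01 read). The factors of the 12 tumours matched joint median-of-ratios scaling to within 4.92e-05%, and the HSC tables were scaled separately. The authors also deposited p-values, adjusted p-values, log2 fold changes and a test score per gene, quoted here only where named.

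The test was limma 3.58.1 (R 4.3.3) on log2(value + 1), for genes whose mean reached 1 in at least 1 of the groups, with Benjamini-Hochberg adjustment over all genes and a threshold of 0.05. This scale understates changes of low genes. Comparisons of groups lying in different tables used recovered reads scaled together. edgeR 4.0.16 and DESeq2 1.42.0 on recovered reads, other pseudocounts (0.1 and 10), no filter, TMM scaling, a replicate block, the other column of active HSC replicate 2 and leaving out each library were alternatives. limma was tested on simulated data. Each HSC table holds 21 symbols turned into dates, dropped where HSC tables were joined. Motifs were searched in RefSeq windows with Python 3.11.15. Positions are from GENCODE on GRCm38. The genes and lists were chosen with earlier results of these data known. Genes named are the 8 members, up to 5 called list genes per comparison by smallest p, the 3 genes most correlated with 4 members, and further called list genes where a count was 5 or fewer or where the text says that they were named after their values were seen.

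Libraries with the same replicate number deviated together, with correlations over 0.1 in all 3 pairs at week 18 (0.164, 0.159 and 0.139) and for transplant against active HSC (0.105, 0.116 and 0.318), a pairing seen in the data and not stated in the labels; a block changed no call of a member there.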

Additional observations from a re-analysis of the deposited data

How the results depend on the processing

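Of 920 alternative fits of the 64 differences (8 genes in 8 comparisons), 869 kept the direction and the side of the threshold, 37 turned the sign, 8 gained a call and 6 lost one. The calls gained were in DESeq2, which called 1 member at week 18 in tumours and 1 between weeks in active tumours (Zbtb16), 1 in transplant against active HSC (Sgk1) and 3 in transplant against sedentary HSC, in edgeR, which called the same 3 there, and with replicates 1 and 2 alone, where Mt2 (0.74, limma adjusted p = 0.0439) took the place of Tsc22d3 (0.95, adjusted p = 0.0756). With the replicate block, transplant against sedentary HSC gave 0 members (Tsc22d3 adjusted p = 0.0746) and 95 genes in place of 1553. Same-numbered libraries there did not deviate together (-0.113, 0.156 and 0.0493), and the cause was not tested. Leaving out 1 library gave 0 to 1 members there and 0 in the other 7 comparisons. Otherwise the block changed no call of a member.

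With the other column of active HSC replicate 2, Klf9 turned to 0.0715 (active against sedentary) and Fkbp5 to 0.0162 (transplant against active). The other sign changes came from leaving out 1 library, and all sign changes fell in 20 results whose log2 differences were at most 0.58 in size. The leave-one-out ranges at week 12 were -0.74 to 0.80 for Zbtb16, -0.17 to 0.0655 for Klf9, -0.0392 to 0.30 for Mt1, -0.0372 to 0.91 for Mt2 and -0.50 to 0.0460 for Fkbp5. At week 18 the range was -0.20 to 0.10 for Nr3c1, and for the change of effect between weeks -0.0791 to 1.19 for Mt2. Between weeks in sedentary tumours the ranges were -0.10 to 0.13 for Fkbp5, -0.0545 to 0.23 for Klf9, -0.53 to 0.74 for Mt2, -0.25 to 0.0613 for Nr3c1, -0.0744 to 0.53 for Sgk1 and -0.11 to 0.41 for Mt1, and in active tumours -0.56 to 0.00861 for Tsc22d3. In HSC they were -0.14 to 0.12 for Klf9 and -0.10 to 0.000518 for Fkbp5 (active against sedentary), -0.0519 to 0.39 for Zbtb16 and -0.10 to 0.0295 for Fkbp5 (transplant against active), and -0.0492 to 0.18 for Nr3c1 and -0.10 to 0.0318 for Fkbp5 (transplant against sedentary).

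Counts over all genes also moved with the tool: limma, edgeR and DESeq2 called 99, 76 and 208 genes at week 12, 0, 0 and 52 at week 18, 2, 0 and 174 for the change of effect, 0, 0 and 172 between weeks in sedentary and 0, 0 and 892 in active tumours, 0, 0 and 257 for active against sedentary HSC, 7, 1 and 1107 for transplant against active and 1553, 2566 and 3181 for transplant against sedentary. The 3 replicates per group and the spread of Mt2 and Zbtb16 limit the differences that are callable. An exact permutation of 3 against 3 cannot give p below 0.1.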
